A study of Mus musculus with 18 samples.

Results

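The 42 genes described here make cholesterol and fatty acids in animal cells or govern how much sterol a cell makes, moves and exports. They were listed by name in 7 steps of the pathway, and among the probe sets that carry a gene's symbol alone, the one with the highest mean signal over the 18 arrays stands for the gene. Of the 42, 39 had such a probe set among 18194 genes so represented, and 3 were not analysed here. All 39 passed the filter on dim signals, which asked for 3 or more arrays on which a gene exceeds that array's 40th percentile, as did 13679 genes in all. The 39 comprise 5 regulators of the SREBP factors, 6 genes of the mevalonate steps, 3 of the squalene and lanosterol steps, 8 of the steps from lanosterol to cholesterol, 3 of sterol transport and storage, 4 of sterol export and its control, and 10 of fatty acid synthesis.

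The cells were primary fibroblasts, the collagen-making cells of connective tissue, cultured from 14-day mouse embryos whose head and liver had been taken off. They came from 3 wild-type embryos and 3 embryos labelled as knock-outs of NFI-C, a transcription factor of the nuclear factor I family. Each embryo's cells were grown with 10% serum, and then, in all groups, stood for 4 to 6 h in medium with an albumin supplement (AlbuMAX II) and insulin, transferrin and selenium. They were then left untreated, or were given TGF-β1 at 12.5 ng/ml, a secreted factor whose receptors act on genes through SMAD proteins, and harvested 1 h or 10 h later. This gave 6 groups of 3 arrays, one array per embryo and condition, measured on Affymetrix arrays. Values are log2 signals in the order of embryos 1, 2 and 3 of a genotype, and differences are log2 fold changes ± standard error from limma with n = 3 embryos per group. The untreated cells have no match in time at 10 h, so TGF-β1 and time in culture cannot be told apart. A signal compares 1 gene across arrays and not genes with each other.

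Sterol synthesis starts from acetyl-CoA, runs through mevalonate and the isoprenoid units to squalene, and closes to lanosterol, which a chain of endoplasmic reticulum enzymes trims to cholesterol. The transcription factors SREBP1 and SREBP2 switch on the genes of this pathway and of fatty acid synthesis. SCAP carries them to the Golgi for cleavage when membrane sterol is low, and the INSIG proteins hold them back when it is high. The LXR receptors sense oxidised sterols and switch on export through ABCA1 and ABCG1, and also the ubiquitin ligase MYLIP, which removes lipoprotein receptors from the cell surface. In fibroblasts these genes set the balance between sterol made inside the cell and sterol taken from lipoproteins.

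The knock-out label could not be checked from expression. Over 9 arrays each, the brightest Nfic probe set lay between 10.19 and 10.77 in wild-type cells and between 9.89 and 10.72 in knock-out-labelled cells, and the deleted part of the gene is not given in the labels. The genotype is therefore named as labelled. Of the fibroblast markers, Col1a1 lay between 13.61 and 14.03 and Vim between 13.65 and 13.91 on all arrays, while Pdgfra ranged from 5.48 to 9.70 and Lum from 7.22 to 9.86. The hepatocyte marker Alb stayed at 4.32 or lower. Among epithelial markers Cdh1 stayed at 4.26 or lower, Epcam between 5.89 and 6.46, and Krt18 between 4.41 and 6.52. Among adipocyte markers Adipoq stayed at 3.43 or lower, while Cebpa reached 8.06 and Lpl 10.41. Macrophage and leukocyte markers were present in every culture: the mean of all 18 read 10.43, 8.90 and 8.76 in untreated wild-type cells and 9.75, 8.0 and 8.43 in untreated knock-out-labelled cells, highest in embryo 1 of both genotypes. In such bulk RNA, fewer cells of a type and less RNA per cell cannot be told apart. One pair of arrays went against its labels. The deviations of wild-type 10 h arrays 2 and 3 from their group mean correlated at -0.064 and -0.20 with those of the untreated arrays of the same embryo, against 0.28 to 0.49 for the other 4 embryos at 10 h, and at 0.44 and 0.38 when the 2 arrays were exchanged. Wild-type 10 h array 2 also carried low values of some genes described below. Several results that rest on it are given with and without it. Counts of embryos in which a gene rose or fell follow the labels, and exchanging the 2 arrays alters some of them.

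The stretches before the start sites of 7 genes are shown as examples of the sterol synthesis, feedback, fatty acid and lipoprotein uptake genes described below. They are the 250 bases before the start, from RefSeq (GRCm38.p6), written 5′ to 3′ on the gene's strand and chosen after the values had been seen. Capitals mark a CCAAT box on either strand (bound by NF-Y), an E-box (CACGTG) or the core of a sterol regulatory element (TCACNCCAC), the site of SREBP.
Hmgcs1 (chr13:119690101-119690350, plus strand): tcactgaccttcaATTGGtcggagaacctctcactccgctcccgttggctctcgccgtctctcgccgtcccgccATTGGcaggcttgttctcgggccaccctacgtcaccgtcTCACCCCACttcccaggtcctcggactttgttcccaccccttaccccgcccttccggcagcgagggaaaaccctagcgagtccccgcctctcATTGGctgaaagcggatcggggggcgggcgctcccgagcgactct
Idi1 (chr13:8885356-8885605, plus strand): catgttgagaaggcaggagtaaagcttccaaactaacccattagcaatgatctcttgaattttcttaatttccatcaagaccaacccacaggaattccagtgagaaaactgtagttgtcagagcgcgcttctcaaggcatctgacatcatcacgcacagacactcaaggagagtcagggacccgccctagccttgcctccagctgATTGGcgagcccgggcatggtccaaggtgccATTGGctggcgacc
Cyp51 (chr5:4104698-4104947, minus strand): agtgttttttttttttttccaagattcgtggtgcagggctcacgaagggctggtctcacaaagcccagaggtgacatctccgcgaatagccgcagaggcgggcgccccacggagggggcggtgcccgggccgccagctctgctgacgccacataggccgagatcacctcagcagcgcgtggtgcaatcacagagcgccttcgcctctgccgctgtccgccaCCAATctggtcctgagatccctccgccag
Insig1 (chr5:28071162-28071411, plus strand): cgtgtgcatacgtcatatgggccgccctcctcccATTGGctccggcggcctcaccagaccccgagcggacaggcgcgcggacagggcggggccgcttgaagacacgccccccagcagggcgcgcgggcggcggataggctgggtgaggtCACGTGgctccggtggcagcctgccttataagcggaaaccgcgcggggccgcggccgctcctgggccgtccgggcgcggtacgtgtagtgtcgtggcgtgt
Acss2 (chr2:155517793-155518042, plus strand): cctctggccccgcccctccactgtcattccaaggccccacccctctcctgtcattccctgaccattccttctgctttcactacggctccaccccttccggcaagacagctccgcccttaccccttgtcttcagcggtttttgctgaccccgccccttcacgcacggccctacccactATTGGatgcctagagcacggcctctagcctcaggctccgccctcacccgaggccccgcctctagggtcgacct
Elovl6 (chr3:129532136-129532385, plus strand): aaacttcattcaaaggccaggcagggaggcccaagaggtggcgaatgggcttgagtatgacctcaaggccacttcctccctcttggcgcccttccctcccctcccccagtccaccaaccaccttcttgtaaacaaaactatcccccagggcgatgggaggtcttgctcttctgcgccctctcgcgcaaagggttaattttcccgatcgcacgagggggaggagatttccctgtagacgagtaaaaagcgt
Mylip (chr13:45389492-45389741, plus strand): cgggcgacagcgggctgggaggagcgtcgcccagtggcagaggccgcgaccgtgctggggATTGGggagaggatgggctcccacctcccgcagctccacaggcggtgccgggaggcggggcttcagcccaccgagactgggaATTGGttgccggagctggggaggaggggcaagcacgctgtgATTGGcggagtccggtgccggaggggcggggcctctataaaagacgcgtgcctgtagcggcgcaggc

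Windows of 300 bases, from 250 before to 50 after the start, were on hand for 30 of the 39 genes. In this paragraph all genes are the 27025 with such a window, whether or not the arrays measured them. A CCAAT box stood in a window of all 14 sterol synthesis enzyme genes in the table, which have 17 windows, 14 of them with the box. Over all genes 41.1% had one, and among all windows 37.4%. Of 7 fatty acid synthesis genes 3 had a CCAAT box (Acly, Acss2 and Fasn), and Elovl6 and Fads2 had none in this window. The sterol regulatory element core was in the window of 1 gene, Hmgcs1, at -137 counted from the start site, against 1.44% of all genes. The E-box was found in 6 of 30 genes (Scap, Insig1, Hsd17b7, Sc5d, Dhcr7 and Abca1), against 8.09% of all genes. The GC box GGGCGG, which is short and common near start sites, stood in 25 of 30 genes against 38.2% of all. The full nuclear factor I palindrome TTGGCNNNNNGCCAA and the SMAD palindrome GTCTAGAC were in none of the 30, and in 0.0444% and 0.248% of all genes. All motifs were searched on both strands. A CCAAT box on the other strand reads ATTGG and shares letters with the nuclear factor I half-site, and all of these are matches of letters only.

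The 10 h comparison asked for the delayed response to TGF-β1. Most genes that fell act in fatty acid synthesis or, as Mylip does, in the control of lipoprotein uptake, and 1 of the 17 sterol synthesis enzymes was among them. In wild-type cells 6 of the 39 genes fell and 0 rose, and in knock-out-labelled cells 6 fell and 0 rose (limma, adjusted p under 0.05). Among all genes tested, 18.8% fell and 14.9% rose in wild type, and 20.7% fell and 13.9% rose in knock-out-labelled cells, so the share of the 39 that fell was close to that of all genes. Acss2, Mylip, Elovl6 and Fads1 fell in both genotypes, but Elovl6 and Fads1 did not pass when certain single embryos were left out. Scd1 and Fads2 passed in wild type only and Scd2 and Pmvk in knock-out-labelled cells only, but no difference between the genotypes in the response passed the test. The median change of the 39 was -0.13 in wild type and -0.14 in knock-out-labelled cells, against 0.01 and -0.03 over all genes.

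**Figure D1:**
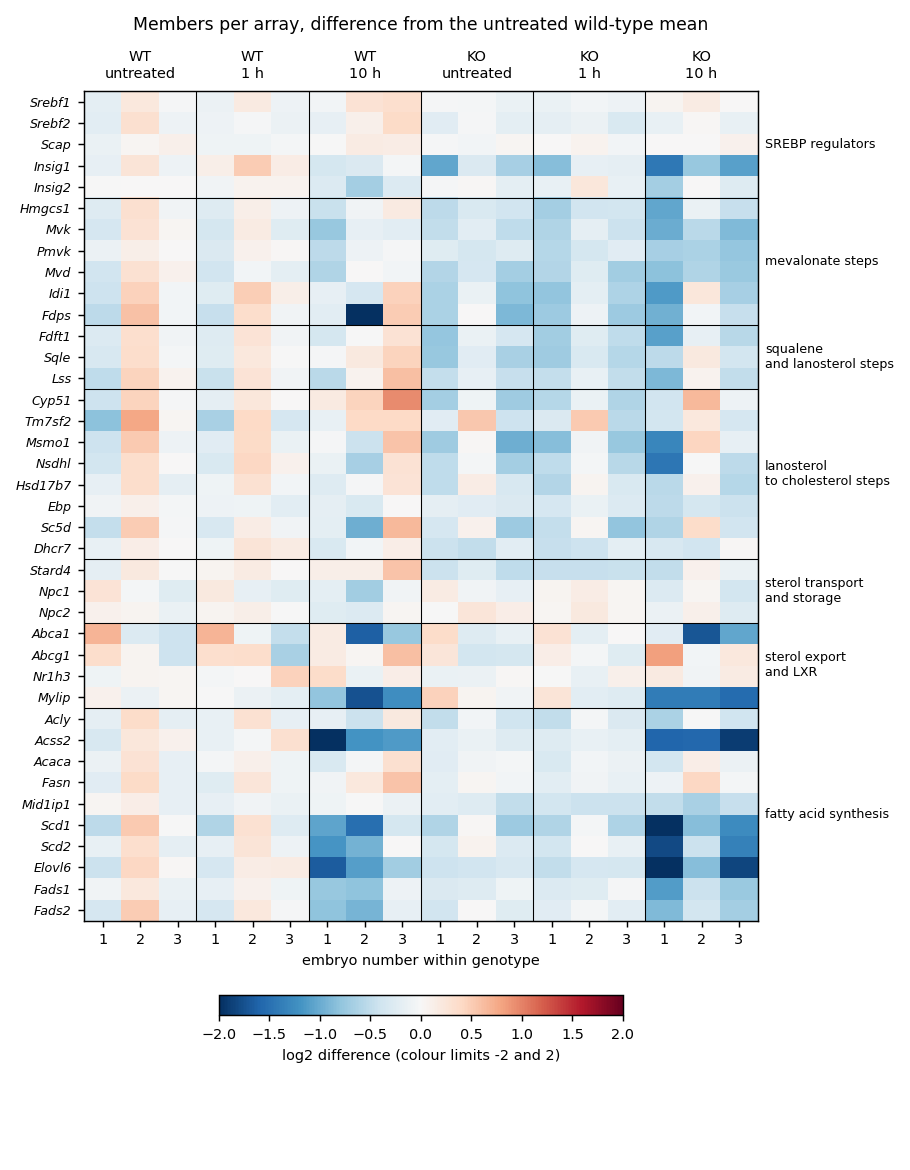
Log2 signal of each of the 39 genes (rows, by pathway step) on each of the 18 arrays (columns, by group and embryo) minus that gene's mean in untreated wild-type cells; blue is lower and red higher, with colours limited at -2 and 2. Dark blue cells at 10 h include those of Acss2, Mylip, Elovl6 and the Scd genes, and of Abca1 on array 2 of both genotypes. A single cell, Fdps on wild-type 10 h array 2, stands alone among the mevalonate steps.

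**Figure D2:**
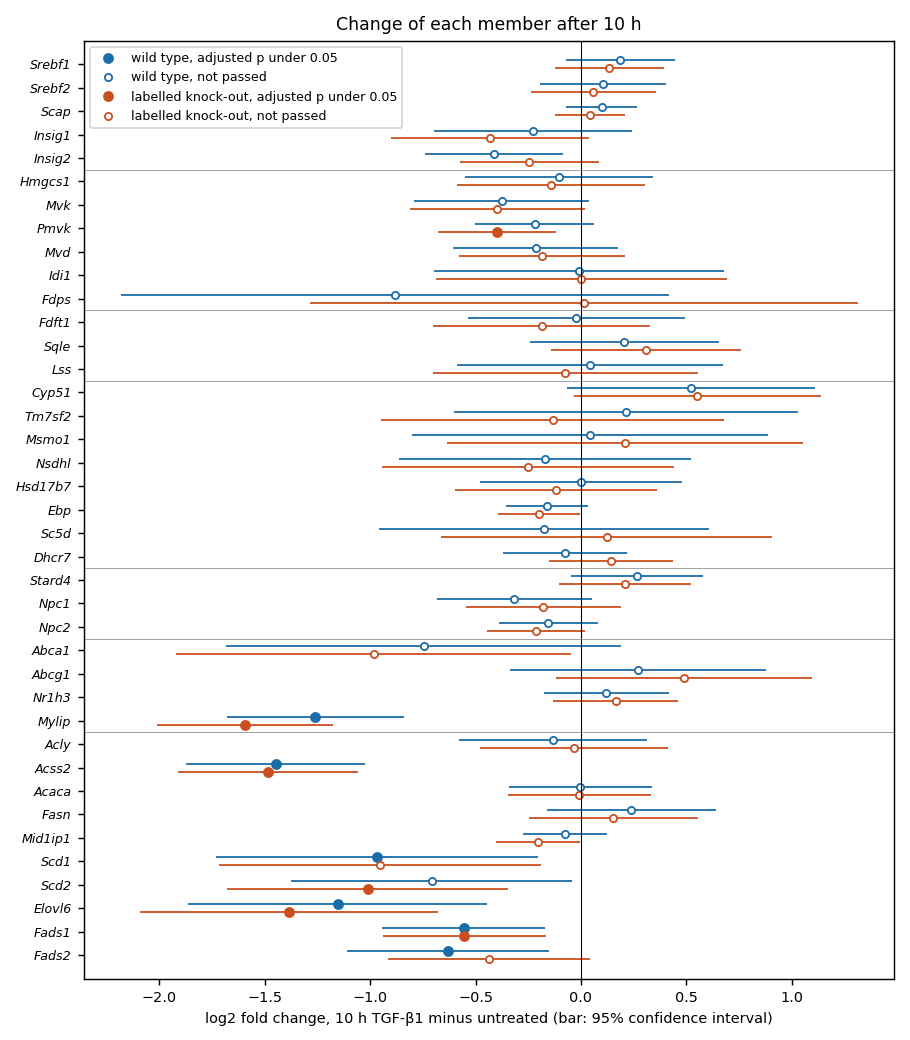
Change of each gene between untreated and 10 h cells (log2 fold change, horizontal axis) in wild type (blue) and knock-out-labelled cells (orange), with 95% confidence intervals from limma; filled points passed at an adjusted p under 0.05. Every filled point lies left of 0, and of the intervals of the 17 sterol synthesis enzymes those of Pmvk and Ebp in knock-out-labelled cells leave out 0.

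Among the 10 fatty acid synthesis genes, 5 fell in wild type and 4 in knock-out-labelled cells, against 18.8% and 20.7% of all genes. The largest fall was that of Acss2, which makes acetyl-CoA from acetate in the cytosol and nucleus. Acss2 read 6.58, 7.13 and 6.99 in untreated wild-type cells, 6.75, 6.86 and 7.22 after 1 h and 4.88, 5.70 and 5.77 after 10 h. The knock-out-labelled cells gave 6.70, 6.77 and 6.65 untreated, 6.65, 6.76 and 6.71 at 1 h and 5.32, 5.33 and 5.01 at 10 h. Every 10 h array lay below every untreated and 1 h array of its genotype, and embryo 1 was the lowest in wild type. The change at 10 h was -1.45 ± 0.20 in wild type (adjusted p = 5.11e-05) and -1.48 ± 0.20 in knock-out-labelled cells (3.63e-05), a level of 0.366 and 0.357 of the untreated one. A second Acss2 probe set changed by -1.41 and -1.56, and the dimmest of the 3, with a mean of 4.03 in untreated wild-type cells, by 0.07 and 0.10. Acss2 passed without any one of the 6 embryos.

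Elovl6 lengthens palmitate to stearate. Elovl6 read 8.56, 9.41 and 9.02 in untreated wild-type cells, 8.66, 9.15 and 9.16 after 1 h and 7.33, 7.89 and 8.30 after 10 h. For knock-out-labelled embryos the Elovl6 signals were 8.58, 8.61 and 8.68 untreated, 8.50, 8.66 and 8.64 at 1 h and 6.40, 8.14 and 7.16 at 10 h. The 10 h values lay below all untreated ones in both genotypes, and the spread at 10 h was wide, from 6.40 to 8.14 in knock-out-labelled cells. Elovl6 changed by -1.15 ± 0.33 in wild type (adjusted p = 0.014) and -1.39 ± 0.33 in knock-out-labelled cells (0.00422). It missed the threshold without wild-type embryo 2 in wild type, and without embryo 1 or 3 in knock-out-labelled cells. A second Elovl6 probe set changed by -1.55 and -1.39.

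Scd1 and Scd2 are stearoyl-CoA desaturases, which put the double bond into oleate, and are close relatives whose probes could share signal, which was not tested. Scd2 read 12.50, 12.97 and 12.45 in untreated wild-type cells, 12.47, 12.90 and 12.54 after 1 h and 11.45, 11.70 and 12.64 after 10 h. Scd2 in knock-out-labelled cells stood at 12.28, 12.70 and 12.37 without TGF-β1, 12.27, 12.65 and 12.49 at 1 h and 10.83, 12.20 and 11.29 at 10 h. At 10 h Scd2 was lower in 5 of the 6 embryos as labelled, and wild-type array 3 read 12.64, among the untreated values. The change was -0.71 ± 0.31 in wild type (adjusted p = 0.0932) and -1.01 ± 0.31 in knock-out-labelled cells (0.0194), where it missed the threshold without embryo 1 or 3. With the mean of its probe sets Scd2 did not pass there either. Dimmer Scd2 probe sets changed by -0.62 and -0.33 in wild type and by -0.76 and -0.43 in knock-out-labelled cells. Scd1 read 9.61, 10.66 and 10.13 in untreated wild-type cells, 9.53, 10.44 and 9.87 after 1 h and 9.08, 8.63 and 9.79 after 10 h. In knock-out-labelled cells Scd1 read 9.54, 10.16 and 9.40 untreated, 9.53, 10.10 and 9.52 after 1 h and 8.08, 9.28 and 8.88 after 10 h. Wild-type 10 h array 3 overlapped the untreated group, while the knock-out-labelled groups did not overlap. Scd1 changed by -0.97 ± 0.36 in wild type (adjusted p = 0.0484) and -0.95 ± 0.36 in knock-out-labelled cells (0.0512), just inside the threshold in one genotype and just outside in the other. In wild type it passed in 2 of the 6 fits that left out an embryo, and without array 2 it was -0.70 ± 0.38 (adjusted p = 0.198). With the mean of its probe sets Scd1 did not pass in wild type, and its dimmer probe set changed by -0.72 and -1.14.

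Fads1 and Fads2 are the delta-5 and delta-6 desaturases of polyunsaturated fatty acids. Fads1 read 10.41, 10.70 and 10.35 in untreated wild-type cells, 10.32, 10.57 and 10.40 after 1 h and 9.73, 9.68 and 10.38 after 10 h. The knock-out-labelled cells gave 10.19, 10.23 and 10.40 untreated, 10.22, 10.25 and 10.46 at 1 h and 9.37, 10.05 and 9.74 at 10 h. Wild-type 10 h arrays 1 and 2 were below all untreated ones and array 3 was not, and in knock-out-labelled cells the groups did not overlap. Fads1 changed by -0.56 ± 0.18 in wild type (adjusted p = 0.0274) and -0.55 ± 0.18 in knock-out-labelled cells (0.0269). A dimmer Fads1 probe set changed by -0.11 and -0.45, and with the mean of its probe sets Fads1 did not pass in wild type. Fads2 read 8.87, 9.70 and 9.04 in untreated wild-type cells, 8.87, 9.41 and 9.18 after 1 h and 8.40, 8.27 and 9.05 after 10 h. For knock-out-labelled embryos the Fads2 signals were 8.82, 9.22 and 8.97 untreated, 8.98, 9.17 and 8.99 at 1 h and 8.33, 8.84 and 8.53 at 10 h. Again wild-type 10 h array 3 stayed at its untreated level. Fads2 changed by -0.63 ± 0.23 in wild type (adjusted p = 0.0418) and -0.44 ± 0.23 in knock-out-labelled cells (0.155). A Fads2 probe set of like brightness changed by -0.27 and -0.21, and a dimmer one by -0.36 and -0.58. With the mean of all its probe sets Fads2 did not pass in wild type. Fads1 missed the threshold without embryo 1 or 2 in wild type and without embryo 1 or 3 in knock-out-labelled cells, and Fads2 passed in 1 of the 6 fits that left out an embryo. Without wild-type 10 h array 2, Fads1 was -0.43 ± 0.20 (adjusted p = 0.121) and Fads2 -0.48 ± 0.25 (0.165) in wild type.

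The other 4 genes of this step did not pass in either genotype. They act at its head: Acly splits citrate to acetyl-CoA, Acaca carboxylates it to malonyl-CoA, Fasn builds palmitate, and Mid1ip1 aids acetyl-CoA carboxylase. Acly was at -0.13 ± 0.21 and -0.03 ± 0.21, Acaca at -0.00 ± 0.16 and -0.01 ± 0.16, and Fasn at 0.24 ± 0.19 and 0.15 ± 0.19 at 10 h in the wild-type and knock-out-labelled cells. Mid1ip1 was at -0.08 ± 0.09 and -0.21 ± 0.09. The step thus held its largest falls among acetate activation, elongation and desaturation genes. The estimates of the 3 genes from citrate to palmitate lay within 0.24 of 0, but single embryos differed more. As labelled, Acly was at -0.80 in wild-type embryo 2, and Fasn at 0.73 and Acaca at 0.49 in wild-type embryo 3. Other bright Acly probe sets were at -0.17 and 0.14 in wild type and -0.26 and 0.35 in knock-out-labelled cells. A dim Acaca probe set was at 0.33 and 0.49. The mean of the 10 genes per array read 9.56, 10.13 and 9.69 in untreated wild type and 8.98, 9.12 and 9.65 at 10 h, and 9.46, 9.69 and 9.51 against 8.63, 9.33 and 8.92 in knock-out-labelled cells.

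**Figure D3:**
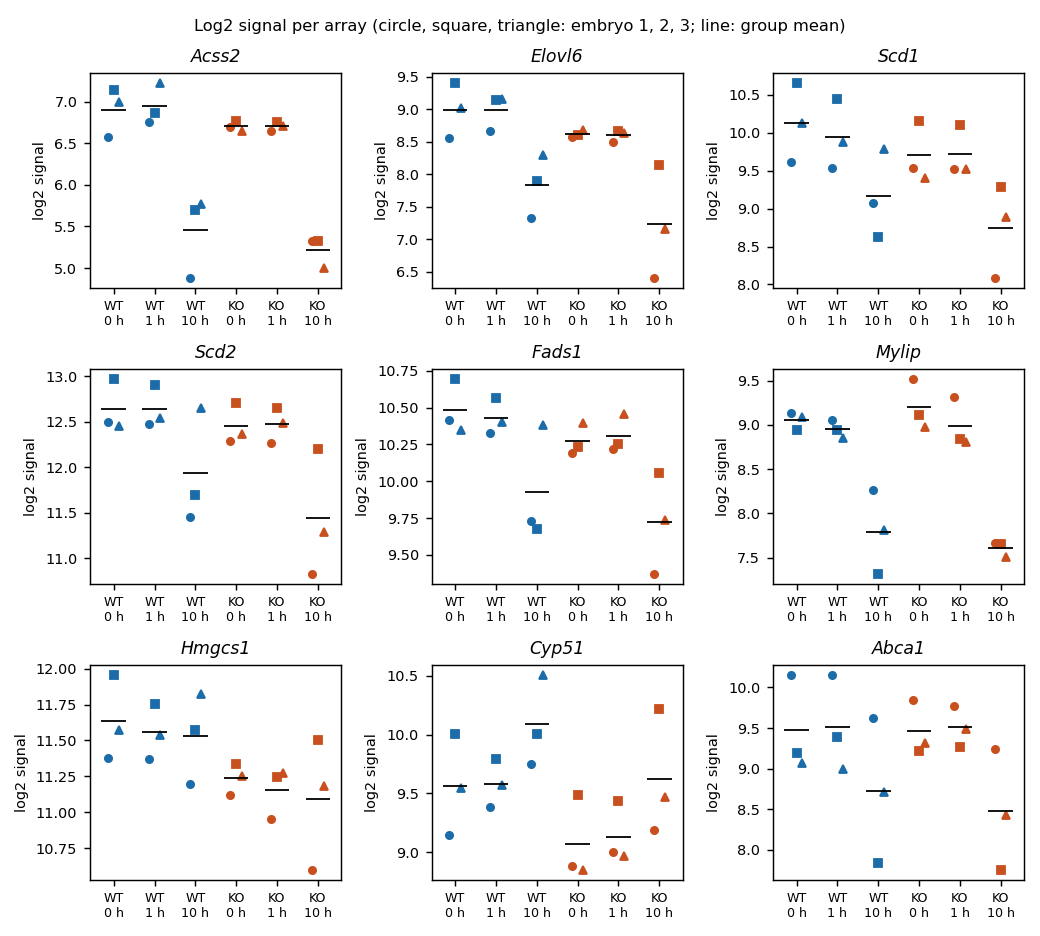
Log2 signal of 9 genes on each array, by group (wild type blue, knock-out-labelled cells orange; 0 h is untreated), with circle, square and triangle for embryos 1, 2 and 3 and a line at the group mean. Acss2 and Mylip separate fully at 10 h, Scd1, Scd2 and Fads1 overlap through wild-type embryo 3, and embryo 2 is the highest of the untreated cells of both genotypes for Hmgcs1 and Cyp51.

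Mylip, the ubiquitin ligase that LXR switches on and that sends lipoprotein receptors for breakdown, was the gene of sterol export and control that fell. Mylip read 9.14, 8.94 and 9.09 in untreated wild-type cells, 9.05, 8.94 and 8.86 after 1 h and 8.26, 7.32 and 7.81 after 10 h. Mylip in knock-out-labelled cells stood at 9.52, 9.11 and 8.98 without TGF-β1, 9.32, 8.84 and 8.80 at 1 h and 7.66, 7.65 and 7.51 at 10 h. Each 10 h array lay below the untreated and 1 h arrays of its genotype. Mylip changed by -1.26 ± 0.20 in wild type (adjusted p = 0.000155) and -1.60 ± 0.20 in knock-out-labelled cells (1.58e-05), to 0.418 and 0.331 of the untreated level, and passed without any one of the 6 embryos. It was read from its only probe set.

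Abca1 and Abcg1, the transporters that pass cholesterol to lipoproteins, had 10 h estimates of opposite sign. Abca1 read 10.15, 9.20 and 9.07 in untreated wild-type cells, 10.15, 9.38 and 8.99 after 1 h and 9.63, 7.84 and 8.71 after 10 h. In knock-out-labelled cells Abca1 read 9.85, 9.22 and 9.32 untreated, 9.77, 9.27 and 9.49 after 1 h and 9.25, 7.75 and 8.43 after 10 h. Abca1 was lower at 10 h in all 6 embryos, but the groups overlapped, with embryo 1 highest in each group. Its change was -0.75 ± 0.44 in wild type (adjusted p = 0.205) and -0.98 ± 0.44 in knock-out-labelled cells (0.0992). With the embryo as a replicate block it passed, at an adjusted p of 0.0166 and 0.00324. Without wild-type 10 h array 2 and with no block, Abca1 was at -0.30 ± 0.44 in wild type (adjusted p = 0.658). The macrophage marker mean was also highest in embryo 1 of each group, at 10.12, 8.17 and 8.77 in 10 h wild-type cells and 9.41, 7.78 and 8.30 in 10 h knock-out-labelled cells. Its part in the Abca1 values was not tested. The other 2 Abca1 probe sets changed by -0.50 and -0.41 in wild type and by -0.48 and -0.35 in knock-out-labelled cells.

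Abcg1 read 6.85, 6.56 and 6.08 in untreated wild-type cells, 6.83, 6.84 and 5.85 after 1 h and 6.66, 6.54 and 7.10 after 10 h. The knock-out-labelled cells gave 6.74, 6.12 and 6.15 untreated, 6.63, 6.46 and 6.26 at 1 h and 7.32, 6.45 and 6.71 at 10 h. Abcg1 was higher at 10 h in 1 of 3 wild-type and in 3 of 3 knock-out-labelled embryos, and the groups overlapped. The change was 0.27 ± 0.29 in wild type (adjusted p = 0.487) and 0.49 ± 0.29 in knock-out-labelled cells (0.209). Nr1h3, the gene of LXRα, was dim, between 4.42 and 5.04 over all arrays, and was at 0.12 ± 0.14 and 0.17 ± 0.14 with no pass. Of the other sterol-traffic genes, Stard4 (a cytosolic carrier of cholesterol) was at 0.27 ± 0.15 and 0.21 ± 0.15, Npc1 at -0.32 ± 0.17 and -0.18 ± 0.17, and Npc2 at -0.15 ± 0.11 and -0.21 ± 0.11. NPC1 and NPC2 hand cholesterol out of lysosomes. None of the 3 passed in either genotype (smallest adjusted p 0.154).

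None of the 5 regulators of SREBP passed at 10 h against untreated cells, although with the embryo as a replicate block Insig2 passed in wild type (adjusted p = 0.0223) and Insig1 in knock-out-labelled cells (0.0103). Srebf1 read 8.38, 8.79 and 8.55 untreated and 8.52, 8.86 and 8.92 at 10 h in wild type, and 8.56, 8.54 and 8.45 untreated and 8.63, 8.75 and 8.58 at 10 h in knock-out-labelled cells. Srebf2 read 8.47, 9.01 and 8.58 untreated and 8.52, 8.79 and 9.06 at 10 h in wild type, and 8.46, 8.66 and 8.49 untreated and 8.53, 8.71 and 8.54 at 10 h in knock-out-labelled cells. Srebf1 was at 0.19 ± 0.12 and 0.13 ± 0.12, Srebf2 at 0.10 ± 0.14 and 0.06 ± 0.14, and Scap at 0.10 ± 0.08 and 0.04 ± 0.08, with 95% intervals within 0.45 of 0. Srebf1 and Scap passed as higher in wild type when each array was centred on its median, as described below. Insig2 read 8.40, 8.41 and 8.41 in untreated wild-type cells, 8.34, 8.47 and 8.48 after 1 h and 8.13, 7.72 and 8.13 after 10 h. For knock-out-labelled embryos the Insig2 signals were 8.38, 8.42 and 8.22 untreated, 8.26, 8.63 and 8.26 at 1 h and 7.72, 8.41 and 8.15 at 10 h. Insig2 fell short of the threshold at 10 h against untreated, at -0.41 ± 0.15 in wild type (adjusted p = 0.0507) and -0.24 ± 0.15 in knock-out-labelled cells (0.248). Without wild-type 10 h array 2 it was at -0.28 ± 0.16 in wild type (0.219). Against 1 h it passed in wild type, at -0.44 ± 0.15 (adjusted p = 0.0395), and in 2 of the 6 fits that left out an embryo. Without array 2 or after centring it did not pass against 1 h.

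Insig1 is itself a target of SREBP, so that its product closes a feedback loop. Insig1 read 7.98, 8.39 and 8.03 in untreated wild-type cells, 8.25, 8.63 and 8.27 after 1 h and 7.78, 7.84 and 8.09 after 10 h. Insig1 in knock-out-labelled cells stood at 7.10, 7.85 and 7.47 without TGF-β1, 7.28, 7.97 and 7.95 at 1 h and 6.70, 7.38 and 7.05 at 10 h. Knock-out-labelled cells were lower than wild-type cells of the same condition on all arrays, while the times overlapped within a genotype, except 1 h and 10 h in wild type. At 10 h Insig1 was at -0.23 ± 0.22 in wild type (adjusted p = 0.448) and -0.43 ± 0.22 in knock-out-labelled cells (0.15). Against 1 h it fell in knock-out-labelled cells, at -0.69 ± 0.22 on the log2 scale (adjusted p = 0.0242), and was at -0.48 ± 0.22 in wild type (0.107).

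Of the 17 sterol synthesis enzymes, 1 passed at 10 h, Pmvk in knock-out-labelled cells, and 0 passed in wild type. Of all genes 18.8% fell and 14.9% rose in wild type, and 20.7% and 13.9% in knock-out-labelled cells. With the embryo as a replicate block Cyp51 and Mvk passed in wild type, and Cyp51, Mvk, Pmvk and Sqle in knock-out-labelled cells. The shares of all genes with the block are given below. In the mevalonate steps, Mvk and Pmvk add phosphates to mevalonate, Mvd makes isopentenyl diphosphate, Idi1 isomerises it and Fdps joins the units to farnesyl diphosphate. Pmvk read 7.29, 7.17 and 7.26 in untreated and 6.87, 6.90 and 6.75 in 10 h knock-out-labelled cells, which do not overlap, and 7.40, 7.65 and 7.53 in untreated and 7.0, 7.42 and 7.50 in 10 h wild-type cells, which do. It changed by -0.22 ± 0.13 in wild type (adjusted p = 0.215) and -0.40 ± 0.13 in knock-out-labelled cells (0.0281), and missed the threshold when any 1 of the 3 knock-out-labelled embryos was left out. Mvk read 7.77, 8.38 and 8.14 untreated and 7.35, 7.93 and 7.88 at 10 h in wild type, and 7.60, 7.88 and 7.58 untreated and 7.10, 7.56 and 7.22 at 10 h in knock-out-labelled cells. Lower in 6 of 6 embryos, it was at -0.38 ± 0.20 in wild type (adjusted p = 0.149) and -0.40 ± 0.20 in knock-out-labelled cells (0.133), and at an adjusted p of 0.00497 and 0.00338 with the block. Mvd read 7.33, 8.03 and 7.81 untreated and 7.13, 7.73 and 7.66 at 10 h in wild type, and 7.13, 7.39 and 7.04 untreated and 6.90, 7.12 and 6.98 at 10 h in knock-out-labelled cells, and was at -0.22 ± 0.19 and -0.19 ± 0.19.

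Hmgcs1, the synthase of hydroxymethylglutaryl-CoA and the one gene here with the sterol regulatory element core in its window, read 11.38, 11.96 and 11.57 in untreated and 11.20, 11.57 and 11.82 in 10 h wild-type cells. In knock-out-labelled cells it read 11.12, 11.34 and 11.25 untreated and 10.60, 11.50 and 11.18 at 10 h. The groups overlapped, and the change was -0.11 ± 0.21 in wild type (adjusted p = 0.724) and -0.14 ± 0.21 in knock-out-labelled cells (0.656). Other bright Hmgcs1 probe sets lay between 0.04 and 0.07 in wild type and between -0.0043 and 0.34 in knock-out-labelled cells. The dimmest was at -0.56 and -0.19. Fdps read 10.80, 11.90 and 11.26 in untreated wild-type cells, 10.86, 11.68 and 11.25 after 1 h and 11.10, 8.38 and 11.83 after 10 h. In knock-out-labelled cells Fdps read 10.69, 11.33 and 10.42 untreated, 10.59, 11.22 and 10.60 after 1 h and 10.36, 11.27 and 10.86 after 10 h. One value, 8.38 on wild-type 10 h array 2, stood far below the lowest of the other arrays, 10.36. The Fdps change in wild type was -0.88 ± 0.61 with that array and 0.15 ± 0.37 without it. On that array Idi1 (9.57), Msmo1 (9.28), Nsdhl (8.97) and Sc5d (8.33) were also the lowest of the 3 wild-type 10 h values. Idi1 was at -0.01 ± 0.32 with and 0.15 ± 0.36 without it, and Sc5d at -0.18 ± 0.37 with and 0.22 ± 0.36 without.

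The 3 enzymes from farnesyl diphosphate to lanosterol are squalene synthase (Fdft1), squalene epoxidase (Sqle) and lanosterol synthase (Lss). Sqle read 9.89, 10.55 and 10.16 in untreated and 10.17, 10.40 and 10.65 in 10 h wild-type cells, and 9.44, 9.97 and 9.55 untreated and 9.67, 10.40 and 9.83 at 10 h in knock-out-labelled cells. As labelled, it was higher in 5 of 6 embryos, and the changes were 0.21 ± 0.21 and 0.31 ± 0.21. It did not pass (adjusted p = 0.478 and 0.29), and with the block it passed in knock-out-labelled cells only (0.161 and 0.0415). Fdft1 read 10.10, 10.70 and 10.30 untreated and 10.01, 10.37 and 10.66 at 10 h in wild type, and 9.59, 10.24 and 10.03 untreated and 9.27, 10.21 and 9.81 at 10 h in knock-out-labelled cells. Lss read 8.03, 8.99 and 8.61 untreated and 8.01, 8.61 and 9.14 at 10 h in wild type, and 8.06, 8.38 and 8.09 untreated and 7.64, 8.62 and 8.05 at 10 h in knock-out-labelled cells. Both overlapped between times, at -0.02 ± 0.24 and -0.19 ± 0.24 for Fdft1 and 0.04 ± 0.30 and -0.07 ± 0.30 for Lss.

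Cyp51, the lanosterol demethylase that opens the last stretch, had the highest estimate at 10 h of all 39 genes. Cyp51 read 9.15, 10.01 and 9.54 in untreated wild-type cells, 9.38, 9.79 and 9.57 after 1 h and 9.75, 10.0 and 10.51 after 10 h. The knock-out-labelled cells gave 8.88, 9.48 and 8.85 untreated, 9.0, 9.43 and 8.96 at 1 h and 9.19, 10.22 and 9.47 at 10 h. The highest wild-type value, 10.51, was at 10 h, but the groups overlapped, with embryo 2 high in untreated cells too. Cyp51 was at 0.52 ± 0.28 in wild type (adjusted p = 0.157) and 0.55 ± 0.28 in knock-out-labelled cells (0.139), and all 3 of its probe sets were higher, by 0.43 to 0.54 in wild type and 0.47 to 0.56 in knock-out-labelled cells. With the embryo as a replicate block it passed, at an adjusted p of 0.0197 and 0.0141.

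Ebp, the sterol isomerase, read 8.50, 8.68 and 8.53 untreated and 8.39, 8.26 and 8.57 at 10 h in wild type, and 8.39, 8.35 and 8.28 untreated and 8.05, 8.22 and 8.14 at 10 h in knock-out-labelled cells. Its change was -0.16 ± 0.09 in wild type (adjusted p = 0.187) and -0.20 ± 0.09 in knock-out-labelled cells (0.111). Dhcr7, which makes cholesterol from 7-dehydrocholesterol, read 8.09, 8.36 and 8.24 untreated and 7.93, 8.17 and 8.36 at 10 h in wild type, and 7.81, 7.74 and 8.02 untreated and 7.90, 7.85 and 8.25 at 10 h in knock-out-labelled cells. Nsdhl, which removes the C4 carboxyl group together with its partners, read 9.26, 9.98 and 9.63 untreated and 9.49, 8.97 and 9.92 at 10 h in wild type, and 9.11, 9.58 and 8.95 untreated and 8.17, 9.62 and 9.10 at 10 h in knock-out-labelled cells. None separated the times in wild type. The other 4 genes of the step, the C4 oxidase Msmo1, the C14 reductase Tm7sf2, the C3 ketoreductase Hsd17b7 and the C5 desaturase Sc5d, lay between -0.18 ± 0.37 (Sc5d) and 0.21 ± 0.38 (Tm7sf2) in wild type and between -0.14 ± 0.38 (Tm7sf2) and 0.21 ± 0.40 (Msmo1) in knock-out-labelled cells. Dimmer Hsd17b7 probe sets were at 0.15 and 0.42 in wild type and 0.32 and 0.55 in knock-out-labelled cells. The dimmest was at -0.09 and 0.04. The median over the 17 enzymes was -0.07 in wild type and -0.12 in knock-out-labelled cells.

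Synthesis was set against export as the mean of the 17 sterol synthesis enzymes minus the mean of Abca1 and Abcg1 on each array. This difference read 0.41, 1.76 and 1.66 in untreated wild type and 0.84, 1.78 and 1.68 at 10 h. In knock-out-labelled cells it read 0.46, 1.48 and 0.98 untreated and 0.18, 2.12 and 1.23 at 10 h. Embryo 1 was lowest in all 4 groups, and times and genotypes overlapped throughout. As labelled, it was higher at 10 h in 5 of 6 embryos, with a mean change within embryos of 0.16 in wild type and 0.20 in knock-out-labelled cells. Wild-type embryos 2 and 3 were nearly level, at 1.76 and 1.78 and at 1.66 and 1.68. With 10 h arrays 2 and 3 exchanged, wild-type embryo 2 would be lower at 10 h. The enzyme mean of wild-type 10 h array 2 includes the low Fdps value of 8.38, and the difference without that array is not given here. With Mylip counted among the export genes, the difference read 0.20, 1.41 and 1.16 in untreated and 0.80, 1.74 and 1.71 in 10 h wild-type cells. The knock-out-labelled cells then gave 0.05, 1.0 and 0.57 untreated and 0.39, 1.94 and 1.25 at 10 h. So counted it was higher at 10 h in 6 of 6 embryos, by a mean of 0.50 and 0.65. No test was made of either difference, and the size of the change depends on whether Mylip, which fell, is counted. The enzyme mean itself read 8.91, 9.64 and 9.24 in untreated wild type against 8.75, 9.15 and 8.71 in untreated knock-out-labelled cells.

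**Figure D4:**
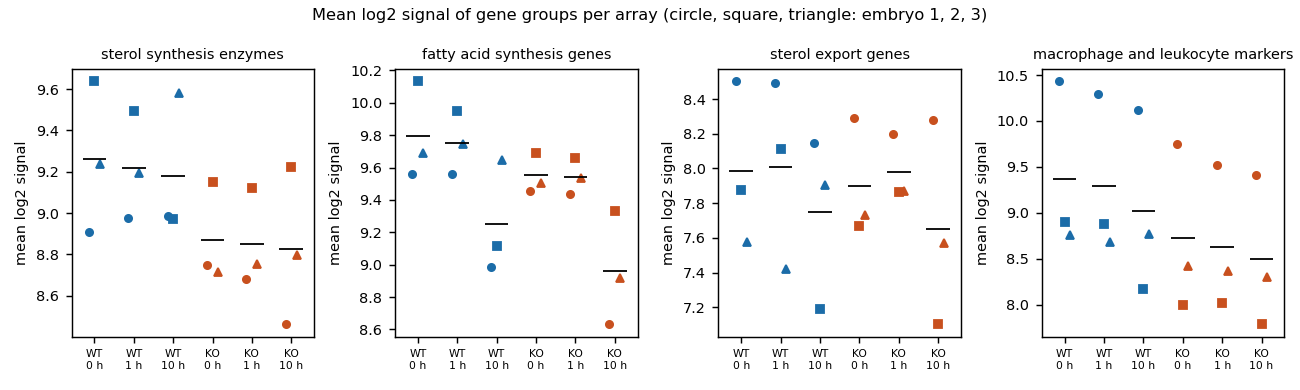
Mean log2 signal per array of the 17 sterol synthesis enzymes, the 10 fatty acid synthesis genes, the export genes Abca1 and Abcg1, and 18 macrophage and leukocyte markers, by group (wild type blue, knock-out-labelled cells orange; 0 h is untreated; circle, square and triangle for embryos 1, 2 and 3; line at the group mean). The fatty acid gene mean is lower at 10 h in each embryo, the sterol enzyme values at 10 h overlap the untreated ones, and embryo 1 is highest for both the export genes and the macrophage markers in every group.

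Within a genotype the same number marks the same embryo, so the 10 h fit was also run with the embryo as a replicate block. In wild type 1 gene then rose (Cyp51) and 10 fell, against 17.5% and 22.6% of all genes. The 10 were the wild-type calls above with Abca1, Insig2, Mvk and Scd2 (adjusted p = 0.0402). In knock-out-labelled cells 2 rose (Cyp51 and Sqle) and 10 fell, against 16.0% and 24.2% of all genes, adding Abca1, Insig1, Mvk and Scd1 (adjusted p = 0.0169) to the calls above. The wild-type block includes the 2 arrays that go against their labels. Without wild-type 10 h array 2 and with no block, 3 genes fell in wild type (Acss2, Elovl6 and Mylip), where 16.5% of all genes did.

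Centring each array on the median of the tested genes moved the median 10 h change of all genes to 0.15 in wild type and 0.11 in knock-out-labelled cells, and changed which way the calls ran. In wild type 3 genes then rose and 3 fell, against 28.2% and 12.8% of all genes. Those that rose were Stard4 at 0.41 ± 0.15, Srebf1 at 0.33 ± 0.13 and Scap at 0.24 ± 0.08, and those that fell were Acss2, Elovl6 and Mylip. In knock-out-labelled cells 0 rose and 4 fell, against 22.8% and 13.9%, the 3 just named and Scd2. Acss2, Elovl6 and Mylip therefore fell under both scalings in both genotypes, and the calls of Fads1, Fads2, Scd1 and Pmvk did not hold under centring.

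Against the 1 h arrays the 10 h cells gave a like list. In wild type 5 genes fell (Acss2, Elovl6, Fads1, Insig2 and Mylip), where 18% of all genes fell and 15.3% rose. In knock-out-labelled cells 7 fell (Acss2, Elovl6, Fads1, Insig1, Mylip, Scd1 and Scd2), against 19.7% and 13.7%. No gene of the 39 rose in either, and these comparisons share the 10 h arrays with those against untreated cells. With the embryo as a replicate block 10 fell and 1 rose in wild type, against 21.3% and 17.5% of all genes, and 10 fell and 2 rose in knock-out-labelled cells, against 22.8% and 15.8%. After centring of arrays, Acss2, Elovl6 and Mylip fell and Scap rose in wild type, against 13.2% and 22.5%. In knock-out-labelled cells the same 3 and Scd2 fell and Stard4 rose after centring, against 13.1% and 23.4%.

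No gene of the 39 passed at 1 h, the immediate response. In wild type 0 of 39 passed in limma's test, against 0.585% of all genes tested, and in knock-out-labelled cells 0 of 39, against 0.49%. No gene of the 39 had an unadjusted p under 0.05 in either genotype. Estimates lay between -0.21 and 0.26 in wild type and between -0.22 and 0.26 in knock-out-labelled cells, with Insig1 the highest in both, at 0.26 ± 0.22.

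Between the genotypes, 0 of the 39 genes passed limma's test in any condition or in the means of each embryo over its 3 conditions, and 0% of all genes tested did. The estimates nonetheless lay mostly on one side. In untreated cells 37 of 39 were lower in knock-out-labelled cells, with a median of -0.29 where the median of all genes was 0.00 and 49.3% of them were lower. At 1 h and 10 h 34 of 39 were lower, with medians of -0.26 and -0.27, where 51.3% and 56.4% of all genes were lower. All 17 sterol synthesis enzymes were lower in untreated cells (median -0.41) and 16 of 17 after either time, with Tm7sf2 the exception at 1 h (0.09 ± 0.38). The exception at 10 h, Fdps at 0.39 ± 0.61, rests on the low wild-type array 2, and was at -0.64 ± 0.37 without it. All 10 fatty acid synthesis genes were lower in each condition, with medians of -0.20 to -0.22. The 3 conditions come from the same 6 embryos, and genes of a pathway vary together between embryos, so these counts are not independent.

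At an unadjusted p under 0.05, 8 of 39 genes differed before treatment, 6 after 1 h and 8 after 10 h, all lower in knock-out-labelled cells, against 3.36%, 6.18% and 5.27% of all genes in either direction. In the embryo means these were 11 of 39, against 4.82%. The groups did not overlap, with knock-out-labelled cells lower, for 7, 7 and 6 of 39 genes in the 3 conditions and 5 in the embryo means. Of all genes this held for 3.33%, 6.11%, 4.96% and 5.15%. Those 5 were Insig1, Stard4, Mid1ip1, Pmvk and Ebp, and 1 further gene, Npc2, was higher without overlap in the embryo means, at 0.07 ± 0.07.

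Insig1 had the lowest estimate of the 39 in untreated and in 10 h cells. Its difference was -0.66 ± 0.22 untreated (limma adjusted p = 1), -0.65 ± 0.22 after 1 h (0.648) and -0.86 ± 0.22 after 10 h (0.612). Stard4 read 7.64, 8.01 and 7.81 in untreated wild-type cells and 7.40, 7.58 and 7.31 in knock-out-labelled cells. At 1 h it read 7.88, 7.99 and 7.82 against 7.35, 7.35 and 7.38, and at 10 h 7.94, 7.94 and 8.38 against 7.32, 7.90 and 7.68. In each condition the knock-out-labelled cells were lower without overlap, and the difference was -0.46 ± 0.09 in the embryo means (adjusted p = 0.688). Mid1ip1 read 9.68, 9.78 and 9.48 against 9.43, 9.38 and 9.15 untreated. Its later values were 9.48, 9.58 and 9.51 against 9.28, 9.21 and 9.21 after 1 h and 9.55, 9.63 and 9.52 against 9.15, 8.99 and 9.19 after 10 h, again without overlap. Its difference in the embryo means was -0.36 ± 0.07 (0.681).

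Several sterol synthesis enzymes had like estimates without passing. In the embryo means, Idi1 was at -0.57 ± 0.23, Sqle at -0.50 ± 0.17, Msmo1 at -0.50 ± 0.26, Fdft1 at -0.49 ± 0.19, Cyp51 at -0.47 ± 0.21 and Hmgcs1 at -0.41 ± 0.16. The 95% intervals of Msmo1 and Cyp51 include 0 and those of the other 4 do not. The export genes were nearer 0, with Abca1 at -0.09 ± 0.34, Abcg1 at -0.05 ± 0.17 and Mylip at -0.00 ± 0.14. Of the SREBP genes, Srebf1 was at -0.08 ± 0.10 and Srebf2 at -0.16 ± 0.10. A second Srebf2 probe set, nearly as bright, differed by -0.42 in untreated cells, where the one used differed by -0.15. Its means in wild-type and knock-out-labelled cells were 8.49 and 8.04 after 1 h and 8.59 and 8.31 after 10 h. The macrophage marker mean was lower in knock-out-labelled embryos too, with a median over the 18 markers of -0.60 in the embryo means, -0.63 untreated, -0.65 after 1 h and -0.57 after 10 h, and 0 of them passing. Its part in the genotype differences was not tested.

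**Figure D5:**
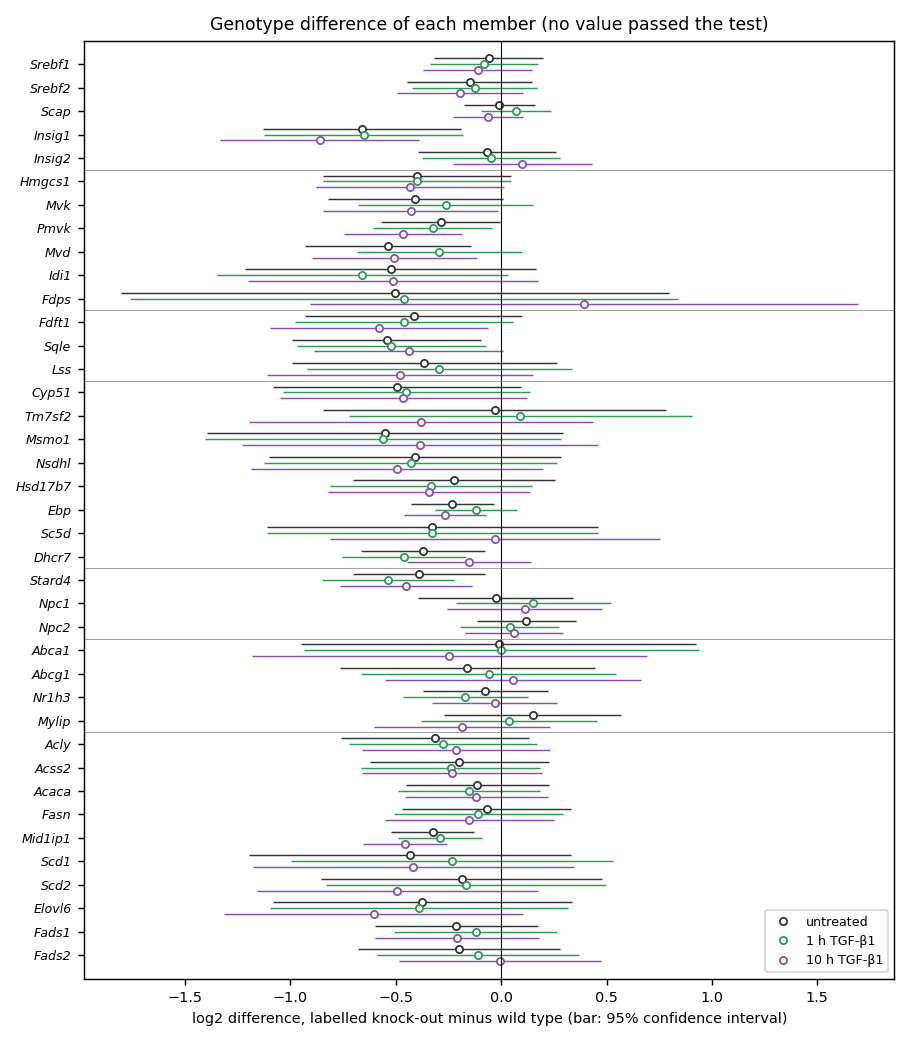
Difference of each of the 39 genes, knock-out-labelled minus wild-type cells (log2, horizontal axis), untreated (black) and after 1 h (green) or 10 h (purple), with 95% confidence intervals from limma. Most points lie left of 0, with Insig1 at -0.86 in 10 h cells, and none passed the test.

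The response itself was compared between the genotypes by an interaction term. At both times 0 of 39 genes passed, as did 0% of all genes, and 0 of the 39 had an unadjusted p under 0.05. For Acss2 the 10 h responses differed by -0.04 ± 0.28 (95% interval -0.64 to 0.57), for Elovl6 by -0.23 ± 0.47 and for Mylip by -0.34 ± 0.28 (-0.93 to 0.26). All adjusted p were 0.999 or higher.

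Genes next to the 39 in the pathway were counted from lists of their own, against the 14.9% of all genes that rose and 18.8% that fell in wild type, and 13.9% and 20.7% in knock-out-labelled cells. Of 8 genes of SREBP processing and turnover, 1 rose and 2 fell at 10 h in each genotype. Fbxw7, the ligase that breaks down nuclear SREBP, rose by 0.53 ± 0.14 in wild type and 0.56 ± 0.14 in knock-out-labelled cells (adjusted p = 0.0088 and 0.00543). Rnf139 and Prkaa2 fell in both. Of 9 genes of the isoprenoid branch 2 rose and 0 fell in wild type, and 1 rose and 1 fell in knock-out-labelled cells, with Icmt, which methylates prenylated proteins, at 0.53 ± 0.15 and 0.52 ± 0.15. Of 20 further genes of sterol handling 4 rose and 5 fell in each genotype. Their median change was -0.12 in wild type and -0.21 in knock-out-labelled cells. The genes named were picked by small adjusted p in wild type, and the 5 that fell are not named. Lrp8 is a receptor for apolipoprotein E and reelin and one of those that Mylip marks for breakdown. It rose by 1.39 ± 0.13 and 1.49 ± 0.13 (adjusted p = 1.23e-06 and 5.39e-07), and a link to the fall of Mylip was not tested. The oxysterol-binding protein Osbp rose by 0.43 ± 0.08 and 0.58 ± 0.08.

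Other fatty acid genes were counted against the same shares of all genes at 10 h. Of 17 tested genes of elongation and activation 2 rose and 2 fell in each genotype. Elovl5, the elongase of polyunsaturated chains, fell, at -1.01 ± 0.12 in wild type and -1.04 ± 0.12 in knock-out-labelled cells (adjusted p = 1.23e-05 and 9.06e-06), and malic enzyme Me1, a source of NADPH, fell, at -0.68 ± 0.10 and -0.39 ± 0.10. Elovl1, which builds very long chains, rose by 0.54 ± 0.09 and 0.38 ± 0.09. Of 18 genes of triglyceride and phospholipid synthesis 2 rose in each genotype and 2 fell in wild type and 4 in knock-out-labelled cells. Of 13 tested genes of fatty acid oxidation 8 fell and 1 rose in wild type, and 7 fell and 2 rose in knock-out-labelled cells. Acadm, the medium-chain acyl-CoA dehydrogenase, fell, at -1.94 ± 0.25 and -1.67 ± 0.25, and so did Hadh, at -1.19 ± 0.14 and -1.29 ± 0.14. The lists' median changes were near 0 for triglyceride genes (-0.04 and -0.07) and -0.60 and -0.61 for oxidation, against 0.01 and -0.03 over all genes.

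Marker lists were counted in the same way at 10 h. Of 11 proliferation markers 9 fell in wild type and 10 in knock-out-labelled cells, with Mki67 at -1.38 ± 0.21 and -1.34 ± 0.21, and their mean went from 9.32, 9.28 and 9.24 to 8.68, 8.36 and 8.49 in wild type. Of 5 tested adipocyte markers 3 fell in wild type and 2 in knock-out-labelled cells, most of all lipoprotein lipase (Lpl), at -3.56 ± 0.56 and -3.21 ± 0.56, while Adipoq, Cidec and Lep stayed between 3.09 and 3.63 on all arrays. Of 10 fibroblast markers 2 fell in wild type and 1 in knock-out-labelled cells, with Pdgfra at -2.48 ± 0.29 and -2.57 ± 0.29 and Lum at -1.34 ± 0.39 in wild type. Of 4 tested epithelial markers 1 rose in both, Krt18 at 1.19 ± 0.27 and 0.91 ± 0.27. Of 18 macrophage markers 1 fell in wild type (Mrc1) and 0 in knock-out-labelled cells, and of 4 tested hepatocyte markers 0 passed. The signal of the 3′ minus the 5′ probe set of actin, a measure of RNA integrity, lay between 0.15 and 0.54 on the untreated and 1 h arrays and between 0.07 and 0.20 on the 10 h arrays. For Gapdh the same measure lay between -0.27 and 0.03 on the untreated and 1 h arrays. At 10 h it lay between -0.31 and -0.19, and these ranges overlap. The part of these shifts in the changes of the 39 genes was not tested.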

How the data were processed

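The authors deposited log2 values from RMA, as the submitters' processing notes name it (no version given there). This method removes background, brings the probes of all arrays to a shared distribution and pools the probes of a probe set, so a global shift of RNA would be hidden. Values ran from 2.49 to 14.47 and array medians from 4.74 to 4.81. The number of arrays limits the precision.

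Of 45101 probe sets 34958 carried 1 gene symbol in the platform annotation, 932 several and 9211 were not named there. Differences were tested with limma 3.58.1 (R 4.3.3): 6 group means, 12 residual degrees of freedom, empirical Bayes, two-sided p adjusted by Benjamini-Hochberg over 13679 genes, threshold 0.05. The test was tried on simulated data. Alternatives were no filter, mean of probe sets, trended robust variances, quantile normalization, array centring, 2-group fits, replicate block and each embryo left out.

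Embryo pairs times within a genotype per the labels: untreated and 1 h arrays correlated at 0.59 to 0.76 (deviations from group means). Across genotypes a number marks different embryos. Members, lists and tests were chosen with earlier results of these data known. Per-array values are given for up to 4 genes per step with the smallest adjusted p at 10 h, for regulators, exporters and genes that passed, and for genotype differences chosen after their values were seen. Promoter windows are from RefSeq, GRCm38.p6; 30 of 39 genes matched.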

Additional observations from a re-analysis of the deposited data

How the results depend on the processing

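With 3 embryos per group, counts of calls depended on the fit. For 10 h against untreated cells 6 genes passed in wild type; 3 passed with the mean of all probe sets, 3 with only the 2 groups in the fit and 3 without wild-type 10 h array 2 (chosen after seeing the data). With the embryo as replicate block 11 passed in wild type and 12 in knock-out-labelled cells against untreated, and 11 and 12 against 1 h. Wild-type 10 h arrays 2 and 3 were then exchanged as well, which was also chosen after seeing the data. With this exchange and the block, 14 and 14 passed against untreated and 13 and 13 against 1 h. Against untreated cells the block alone called 17.5% of all genes higher and 22.6% lower in wild type. In knock-out-labelled cells it called 16.0% and 24.2%. The shares of all genes with the exchange are not given here, nor those with mean probe sets, 2-group fits or an embryo left out. Whether counts in those fits moved more than those of all genes was not tested. Without array 2, 3 passed in wild type against 1 h. Leaving out each embryo gave 2 to 6 calls in wild type and 2 to 7 in knock-out-labelled cells against untreated, and 2 to 6 and 2 to 8 against 1 h. Between genotypes at 10 h, 1 gene (Insig1) passed with the replicate number as a replicate block, and 2 (Insig1 and Fdft1) with the exchange. By number, deviations of the genotypes correlated at 0.35, 0.54 and 0.07 untreated, 0.47, 0.49 and 0.10 at 1 h and 0.135, -0.20 and -0.02 at 10 h, where 2 wild-type arrays went against their labels, and the numbers mark different embryos. The blocked adjusted p of Insig1 was 0.044, and the block gave 0 calls between genotypes in untreated and 1 h cells. Other comparisons kept 0 calls without each embryo in turn and under every other alternative run. The cause of these moves was not tested beyond fewer samples or genes in a fit. Synthesis minus export changed by 0.19 and 0.18 with mean probe sets.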
